A study of Mus musculus with 23 samples.

Results

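The passenger strands of the let-7 family and of miR-98 were followed in the liver of 23 mice by small RNA sequencing. They are the 10 mature miRNAs mmu-let-7b-3p, mmu-let-7c-1-3p, mmu-let-7c-2-3p, mmu-let-7d-3p, mmu-let-7e-3p, mmu-let-7f-1-3p, mmu-let-7f-2-3p, mmu-let-7g-3p, mmu-let-7i-3p and mmu-miR-98-3p (the prefix for mouse is left out below), chosen by name among the 1218 mature mouse miRNAs counted, and all 10 passed the filter on low counts. The row let-7a-1-3p was left out because its sequence is that of let-7c-2-3p, and its counts equalled those of let-7c-2-3p in 18 of 23 libraries and differed by at most 2 in the others. Let-7a-2-3p was not among those chosen either, and had 0 to 4 counts per library in reference and 0 to 3 in HFoleic and HFepa, the groups described below. The mice were F3 males of the strain C57bl/6J, and their age was not given in the sources used here. The reference group (STD_Cont, n = 8) came from the control lineage, bred on a diet with high-oleic sunflower oil, and was fed a low-fat diet. The HFoleic group (HFD_Cont, n = 8) came from the same control lineage and was fed a high-fat, high-sucrose diet. The HFepa group (HFD_O3, n = 7) came from a lineage bred on fish oil rich in the omega 3 fatty acid EPA and was fed the same high-fat, high-sucrose diet. No group of the omega 3 lineage on the low-fat diet was analysed here, so HFepa vs. reference differs in lineage and diet together. Each library came from the whole liver of 1 mouse, and in such samples fewer cells of a type and less RNA per cell cannot be told apart.

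A miRNA is cut from a hairpin whose stem holds a strand on each side, the 5p and the 3p arm. Drosha and Dicer release the pair as a duplex, one strand of which (the guide) is kept by an Argonaute protein and directs the silencing of messenger RNAs, while the other (the passenger) is mostly degraded. In let-7 hairpins the 5p arm is the usual guide. Let-7 guides are known for holding back growth genes such as Lin28, Hmga2 and Ras, and for dampening insulin-PI3K signalling, and the liver is among the tissues in which they are abundant. The 3p arms come from the same hairpins, so reads of both arms in a library show which strand of each duplex was recovered.

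The mature sequences of the passenger strands are shown because their counts are told apart only by these letters. Their seeds (bases 2 to 8, in capitals) are also not all the same. The sequences are taken from RefSeq (GRCm38.p6), where all 10 strands had a match, and are written 5′ to 3′.
let-7d-3p: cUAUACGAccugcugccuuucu
let-7b-3p: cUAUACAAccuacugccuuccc
let-7c-2-3p: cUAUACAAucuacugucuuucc
let-7f-1-3p: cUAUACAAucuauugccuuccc
miR-98-3p: cUAUACAAcuuacuacuuuccu
let-7f-2-3p: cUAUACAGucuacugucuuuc
let-7e-3p: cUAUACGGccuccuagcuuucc
let-7c-1-3p: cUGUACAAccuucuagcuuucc
let-7i-3p: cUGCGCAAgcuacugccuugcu
let-7g-3p: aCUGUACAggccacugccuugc
The seed UAUACAA was shared by 4 of them, let-7b-3p, let-7c-2-3p, let-7f-1-3p and miR-98-3p, and the other 6 each had a seed of their own. The 8 guide strands of these hairpins all carried 1 seed, GAGGUAG, as in the guides of the 2 strands that the results below turn on.
let-7d-5p: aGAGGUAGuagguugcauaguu
miR-98-5p: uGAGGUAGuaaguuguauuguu
Some passenger strands differ by few bases. Over 21 bases let-7c-2-3p and let-7f-2-3p differ by 1 substitution, A8G (let-7c-2-3p first, counted from 1 at the 5′ end), and let-7b-3p and let-7f-1-3p differ at 2 positions of 22. The authors' alignment allowed mismatches, so reads with an error at such a position may have been counted under the other strand of the pair.

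The hairpins lie in 7 places of the genome (GRCm38.p6, annotation of GENCODE M21). Mirlet7d (chr13:48536012-48536114, minus strand) and Mirlet7f-1 (chr13:48537829-48537917, minus strand) lie 1714 bases apart in exons of the long noncoding RNA 6720427I07Rik. Mirlet7c-2 (chr15:85706603-85706697, plus strand) and Mirlet7b (chr15:85707319-85707403, plus strand) lie 621 bases apart in exons of the noncoding gene Lncppara. Mirlet7f-2 (chrX:151912346-151912428, plus strand) and Mir98 (chrX:151913214-151913321, plus strand) lie 785 bases apart in an intron of Huwe1, which encodes a ubiquitin ligase. Mirlet7c-1 (chr16:77599657-77599750, plus strand) is in an intron of the miRNA host gene Mir99ahg, Mirlet7e (chr17:17830352-17830444, plus strand) in an intron of Spaca6 and Mirlet7g (chr9:106178840-106178927, plus strand) in an intron of Wdr82. Mirlet7i (chr10:122985640-122985724, minus strand) overlaps an exon of the transcribed pseudogene D630033A02Rik.

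Library totals ranged from 3725432 to 8139344 counts, with a median of 5981328 in reference, 5408676 in HFoleic and 4400595 in HFepa. The 10 passenger strands together held between 1983 and 5498 counts per library, with group medians of 3983, 3369.5 and 2366 in the same order. In the labels, reference holds library numbers 1 to 8, HFepa 16 to 22, and HFoleic 9 to 15 with 23, and no batch is named. All reference numbers are thus lower than all HFepa numbers, and in HFepa vs. reference an effect of group and anything that follows the numbering cannot be told apart. The 5 hepatocyte miRNAs listed as markers summed to 187956 to 357694 CPM (counts scaled to library size with TMM factors), and none was called in either comparison with reference. In reference the sum of 4 pancreatic miRNAs reached 2021 CPM against a group median of 17.2, that of 3 muscle miRNAs 215 against 5.97, and that of 5 biliary miRNAs 1094 against 191. Of the lists of other cell types, 1 of 6 leukocyte miRNAs was called in each comparison with reference, as was the 1 tested miRNA of muscle and the 1 of pancreas, and 1 of 5 biliary and 1 of 2 endothelial miRNAs in HFepa vs. reference, while 0 of 4 red blood cell and 0 of 6 stellate cell and fibroblast miRNAs were called in either. No listed marker was at 0 in all libraries. The part of these in the results below was not tested beyond leaving out each library.

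Let-7d-3p was the most abundant passenger strand in every liver, at 361 ± 54.6 CPM (SD, n = 23), with a range of 260 to 439 CPM. It made up 58.6% of the summed passenger strands on average, between 51.3% and 64.3% in single livers. A read covers a whole miRNA of 21 or 22 bases, so CPM needs no correction for length, although ligation favours some sequences over others. Let-7b-3p followed at 83.8 ± 11.2 CPM, let-7c-2-3p at 65.7 ± 6.85, let-7f-2-3p at 49.1 ± 4.65 and let-7f-1-3p at 22.2 ± 4.04 CPM. Each of these was above the next in all 23 livers, and the ranges of let-7d-3p and let-7b-3p, as well as those of let-7f-2-3p and let-7f-1-3p, did not overlap.

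The other passenger strands were rare. MiR-98-3p averaged 10.4 ± 2.68 CPM, let-7e-3p 7.33 ± 2.07, let-7g-3p 6.46 ± 1.496, let-7i-3p 5.64 ± 1.75 and let-7c-1-3p 1.77 ± 0.632 CPM (SD, n = 23). Their order was not firm, since miR-98-3p was above let-7e-3p in 18 of 23 livers, let-7e-3p above let-7g-3p in 14 and let-7g-3p above let-7i-3p in 13. Let-7c-1-3p lay below let-7i-3p in all 23. The 4 strands that share the seed UAUACAA thus ran from the second to the sixth place of this order.

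**Figure D1:**
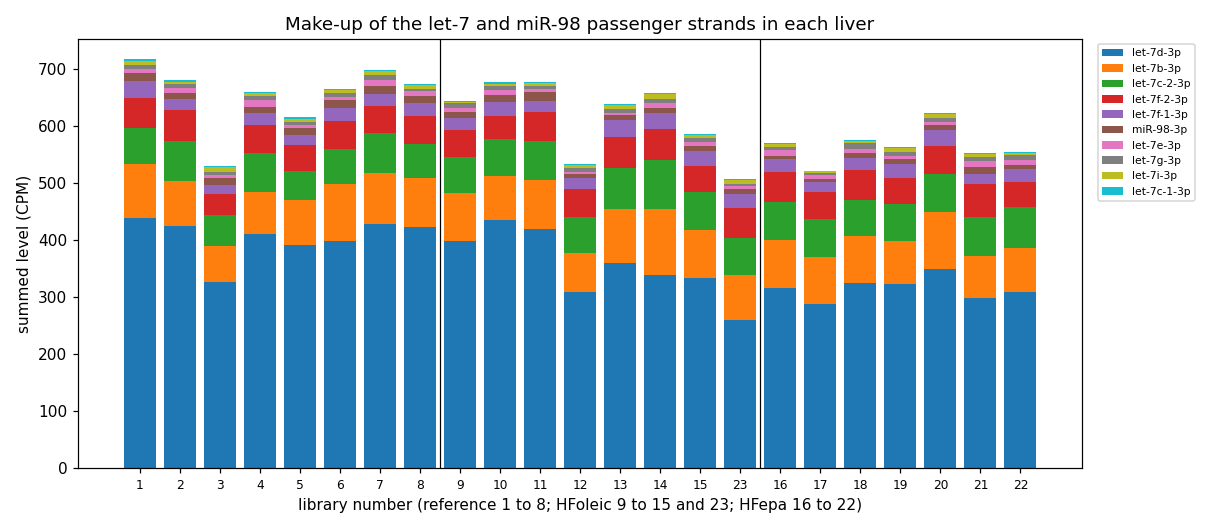
Stacked bars give the level of each of the 10 passenger strands in CPM (y axis) for each of the 23 libraries (x axis, by group). Let-7d-3p is the largest segment in every liver, between 260 and 439 CPM.

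The depth left these strands with unequal precision. Let-7d-3p had 1345 to 2586 counts per library on average in the 3 groups, and its coefficient of variation between mice was 8.80% in reference, 16.5% in HFoleic and 6.36% in HFepa, against 1.99%, 2.27% and 2.73% from counting alone. MiR-98-3p had 81 counts on average in reference, where it varied by 10.5% against 11.2% from counting, but 56.2 counts in HFoleic, where it varied by 27.0% against 13.5%. Let-7c-1-3p had 6.71 to 13.1 counts, and counting alone gave a variation of 27.9% to 38.7%, so that only large differences were detectable for it. These counting values cover counting error only, since the reads carried no molecular identifiers.

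Set against its guide, the passenger strand was the minor arm of every one of these hairpins, but by very different margins. Let-7d yielded 36.7 ± 7.42 reads of 3p per 100 reads of 5p (SD, n = 23), with a lowest value of 25.3 and a highest of 48.2. Let-7b yielded 6.69 ± 1.21, miR-98 3.00 ± 0.992, let-7e 2.38 ± 0.642 and let-7c-2 1.05 ± 0.190 reads per 100. Under 1 read per 100 came from let-7i (0.289 ± 0.102), let-7f-2 (0.176 ± 0.0421), let-7g (0.117 ± 0.0284), let-7f-1 (0.0808 ± 0.0275) and let-7c-1 (0.0285 ± 0.0105). Among all 105 hairpins with both arms tested, the pooled minor arm had a median of 4.27 reads per 100 of the major arm, 25 hairpins exceeded let-7d, and 103 exceeded let-7c-1. The guides let-7c-5p and let-7f-5p are each made by 2 hairpins and counted as 1, so the values of let-7c-1, let-7f-1 and let-7f-2 can lie below the ratio within their own hairpin. The value of let-7c-2 can lie on either side of it, since reads of let-7c-2-3p may also come from Mirlet7a-1.

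In HFoleic vs. reference, which asks what the high-fat, high-sucrose diet changed within the control lineage, 0 of the 10 passenger strands were called by edgeR's quasi-likelihood test, where a call needs an adjusted p (Benjamini-Hochberg) under 0.05 together with a log2 fold change beyond 0.25 in either direction. Among all 386 miRNAs tested, 12.4% were called, 4.92% higher and 7.51% lower. The median log2 fold change of the passenger strands was -0.07, beside -0.0024 over all miRNAs, and 5 were above and 5 below 0. An unadjusted p under 0.05 was found for 3 of 10, let-7e-3p, miR-98-3p and let-7d-3p, and for 28.5% of all miRNAs. Each of these 3 was lower in HFoleic on average, but with values that overlapped those of the reference livers.

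Let-7e-3p ran from 5.88 to 11.6 CPM in reference (median 7.89) and from 4.25 to 9.12 in HFoleic (median 5.62). Its log2 fold change was -0.40 ± 0.19 (SE) with an edgeR adjusted p = 0.163. MiR-98-3p ran from 11.3 to 15.2 CPM in reference (median 12.3) and from 6.84 to 15.3 in HFoleic (median 8.96). The log2 fold change of miR-98-3p was -0.33 ± 0.15, edgeR adjusted p = 0.150, and it was past the threshold at an adjusted p of 0.0430 without HFoleic library 11. Let-7d-3p differed by -0.18 ± 0.088 with an edgeR adjusted p = 0.174. The strand with the largest difference upward was let-7f-1-3p, at 0.26 ± 0.13 and an edgeR adjusted p = 0.193. The other 6 had log2 fold changes from -0.29 (let-7c-1-3p) to 0.14 (let-7c-2-3p).

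In HFepa vs. reference, 2 of the 10 passenger strands were called, and both, let-7d-3p and miR-98-3p, were lower in HFepa. Among all 386 miRNAs, 15.8% were called, 10.6% lower and 5.18% higher, so the share of 2 in 10 is near this background. The median log2 fold change of the passenger strands was -0.025, beside -0.057 over all miRNAs.

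Let-7d-3p ran from 326 to 439 CPM in reference (median 416) and from 288 to 350 CPM in HFepa (median 316). Only reference library 3, at 326 CPM, lay within the HFepa range, and the other reference livers were at 391 CPM or above. Library 3 had the largest TMM factor of the 23 libraries, 1.26, and the CPM value depends on it. With library totals in place of TMM factors, HFepa and reference differed by -0.41 for let-7d-3p (edgeR adjusted p = 0.00621). The means were 405 ± 35.6 CPM (SD, n = 8) in reference and 316 ± 20.1 CPM in the 7 HFepa livers, which is a difference of -0.36 ± 0.091 (SE) on the log2 scale with an edgeR adjusted p = 0.0131. The call held without each of the 23 libraries, with adjusted p between 0.00564 and 0.0474. With quantile normalization it was lost, at -0.26 and a limma adjusted p = 0.182.

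MiR-98-3p ran from 11.3 to 15.2 CPM in reference (median 12.3) and from 5.78 to 11.01 CPM in HFepa (median 9.04). The groups did not overlap for miR-98-3p, the 1 passenger strand of 10 of which this was true, beside 4.66% of all miRNAs. Its means were 12.7 ± 1.34 CPM (SD, n = 8) and 8.36 ± 1.92 (SD, n = 7), a log2 fold change of -0.60 ± 0.16 (SE) with an edgeR adjusted p = 0.0156. The adjusted p was 0.0552 without HFepa library 22, and 0.102 by limma with quantile normalization, so the call was lost in both. Let-7f-2-3p, made from the same Huwe1 intron as miR-98-3p, differed by 0.03 ± 0.084, with 37.8 to 55.4 CPM in reference and 44.2 to 57.2 CPM in HFepa. Let-7f-1-3p, made beside let-7d-3p in 6720427I07Rik, differed by 0.11 ± 0.13 with an edgeR adjusted p = 0.684. The difference between a called strand and its neighbour was not tested.

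The remaining strands of HFepa vs. reference were not called. Let-7c-1-3p differed by -0.40 ± 0.27 and let-7i-3p by -0.24 ± 0.23, the largest of them in size. Let-7b-3p (-0.02 ± 0.10), let-7c-2-3p (0.12 ± 0.081), let-7e-3p (-0.01 ± 0.19) and let-7g-3p (-0.03 ± 0.19) had smaller differences. Let-7b-3p and let-7c-2-3p carry the seed of miR-98-3p, UAUACAA, and the difference among strands with this seed was not tested.

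In HFepa vs. HFoleic, which compares the lineages on the same diet, 0 of 10 passenger strands were called, as of all miRNAs (0%), and 0 of 10 had an unadjusted p under 0.05, beside 5.7% of all miRNAs. The lowest edgeR adjusted p was 0.865, for let-7e-3p, at a log2 fold change of 0.39 ± 0.20 (SE). Let-7e-3p ran from 5.89 to 11.4 CPM in HFepa (median 7.08), values that overlap those of HFoleic. MiR-98-3p differed by -0.26 ± 0.16 and let-7d-3p by -0.18 ± 0.091. A p that misses the threshold does not show that the lineages were alike.

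**Figure D2:**
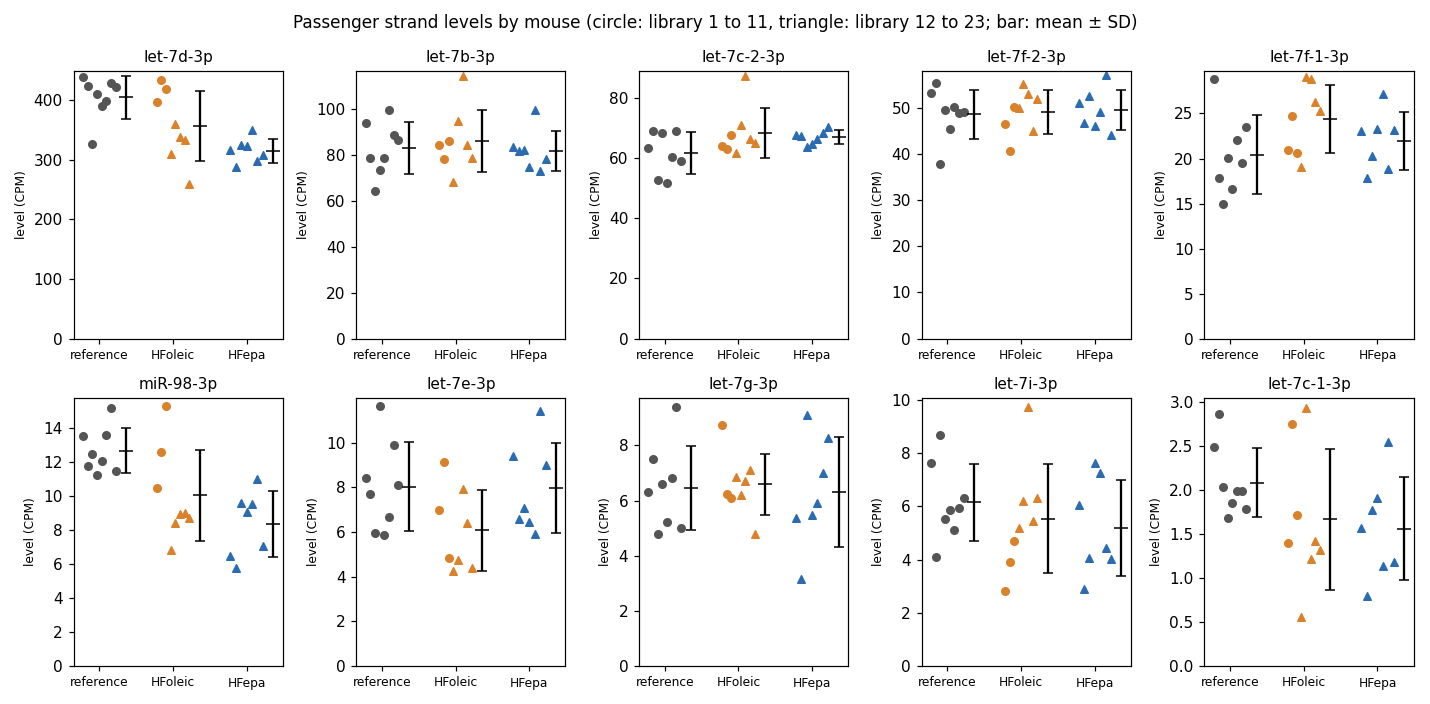
Each panel gives the level of 1 passenger strand in CPM (y axis) for each mouse by group (x axis); circles are libraries 1 to 11, triangles libraries 12 to 23, and the bar is the mean ± SD. For miR-98-3p all 7 HFepa livers lie below all 8 reference livers, and for let-7d-3p the HFoleic circles lie above the HFoleic triangles.

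Both called strands divided the HFoleic group by library number. Let-7d-3p was at 397 to 435 CPM in the 3 HFoleic libraries numbered 9 to 11 and at 260 to 360 CPM in the 5 numbered 12 to 15 and 23. MiR-98-3p was at 10.5 to 15.3 CPM in the first 3 and at 6.84 to 9.00 in the other 5. In neither strand did the 2 sets overlap, although these livers share diet and lineage. The sets did not overlap for 3 of the 10 passenger strands, beside 18.7% of all miRNAs. The 3 HFoleic libraries averaged 417 CPM of let-7d-3p beside 405 in reference, and the 5 averaged 320 CPM beside 316 in HFepa. For miR-98-3p the same means were 12.8 beside 12.7, and 8.38 beside 8.36 CPM. The split after library 11 was known from an earlier analysis of these data, and the labels do not say what it stands for.

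The fit was therefore repeated with a term that sets library numbers from 12 on against those up to 11. It is estimated from the HFoleic livers alone, the only group on both sides of the split. The split was chosen with these data known, so the p-values of the term, here and below, cannot test whether values step there. With it, 0 of 10 passenger strands were called in each of the 3 comparisons, beside 0.259% of all miRNAs in HFoleic vs. reference and 0% in the other comparisons. An unadjusted p under 0.05 was then found for 1 of 10 in each, beside 11.1%, 4.15% and 5.44% of all miRNAs in HFoleic and in HFepa against reference and in HFepa against HFoleic. The log2 fold change of let-7d-3p was then 0.04 ± 0.093 in HFoleic vs. reference and 0.02 in HFepa vs. reference, and that of miR-98-3p 0.01 ± 0.17 and 0.01 ± 0.22. The term itself was called for 2 of 10 passenger strands, beside 6.74% of all miRNAs (2.85% lower), at a log2 difference of -0.38 ± 0.099 for let-7d-3p (edgeR adjusted p = 0.0180) and -0.61 ± 0.18 for miR-98-3p (edgeR adjusted p = 0.0397). In libraries 1 to 11 alone, HFoleic and reference differed by 0.05 for let-7d-3p and 0.02 for miR-98-3p on the log2 scale, and in libraries 12 to 23 alone, HFepa and HFoleic differed by -0.01 and 0.01.

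Let-7i-3p took the other direction with the library number. It was at 2.80 to 4.68 CPM in HFoleic libraries 9 to 11 and at 5.18 to 9.73 CPM in the other 5, again without overlap, and the term was 0.79 ± 0.30 with an edgeR adjusted p = 0.116. Reference livers, all numbered below 12, were at 4.11 to 8.69 CPM, and HFepa livers, all numbered above 11, at 2.89 to 7.62. With the term in the fit, let-7i-3p had a log2 fold change of -0.69 ± 0.28 in HFoleic vs. reference and -1.03 ± 0.36 in HFepa vs. reference, with edgeR adjusted p = 0.415 and 0.723. By groups only, the values were -0.16 ± 0.22 and -0.24 ± 0.23 (edgeR adjusted p = 0.667 and 0.565). The HFoleic libraries, from which the term is estimated, held 16 to 48 counts of let-7i-3p.

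**Figure D3:**
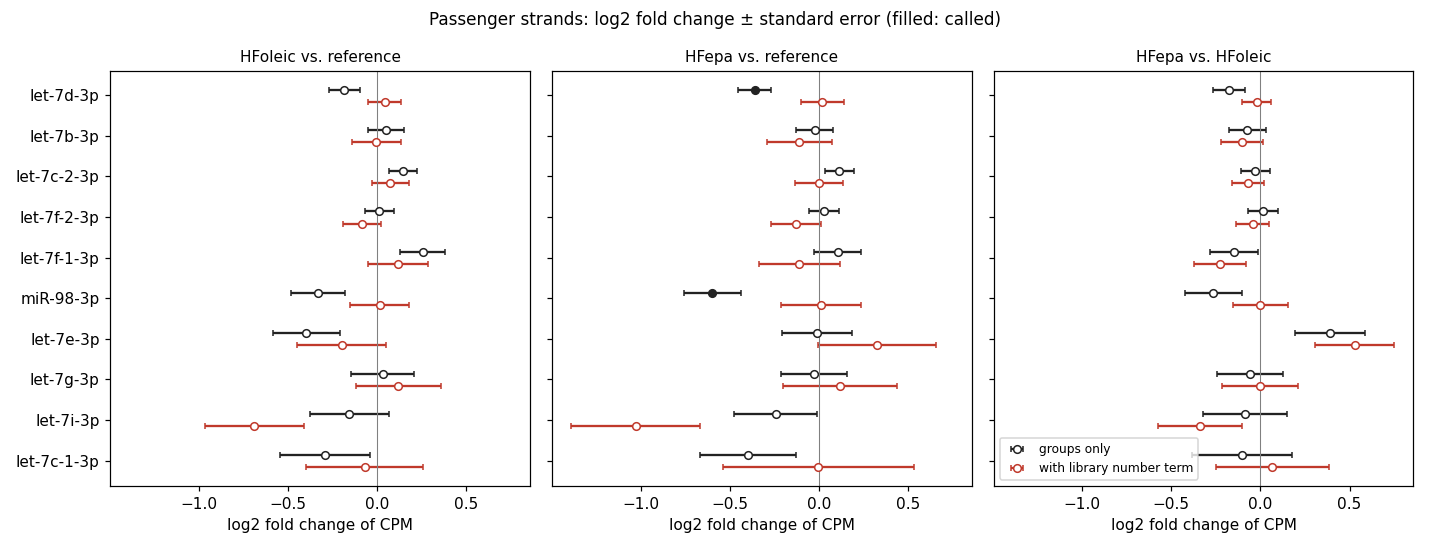
Log2 fold change of CPM (x axis) with its standard error for the 10 passenger strands in the 3 comparisons, fitted by groups only (black) and with a term for the library number (red), with called values filled. The filled points are let-7d-3p at -0.36 and miR-98-3p at -0.60 in HFepa vs. reference, and both lie near 0 with the term.

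The ratio of the 2 arms in a library does not depend on the library total. It was tested over 105 hairpins by limma on log2 of 3p over 5p counts, with 0.5 added to each, and called at a Benjamini-Hochberg adjusted p under 0.05. In HFoleic vs. reference the ratio was called for 2 of the 10 hairpins, lower for let-7d and higher for let-7f-1, beside 15.2% of all hairpins (1.9% higher and 13.3% lower), and 4 of 10 had an unadjusted p under 0.05, beside 29.5% of all. In HFepa vs. reference it was called for 4 of 10, lower for let-7d and miR-98 and higher for let-7f-1 and let-7f-2, beside 21.9% of all hairpins (3.81% higher and 18.1% lower), and 5 of 10 had an unadjusted p under 0.05, beside 35.2% of all. In HFepa vs. HFoleic it was called for 0 of 10, as of all hairpins (0%), and 1 of 10, let-7d, had an unadjusted p under 0.05, beside 5.71% of all.

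Let-7d gave 37.3 to 48.2 reads of 3p per 100 of 5p in reference (median 44.4), 26.6 to 42.0 in HFoleic (median 36.5) and 25.3 to 34.3 in HFepa (median 31.7). The reference and HFepa livers did not overlap in this ratio, which was true of 1 of the 10 hairpins and of 7.62% of all. The log2 difference was -0.32 ± 0.10 (SE) in HFoleic (limma adjusted p = 0.0277) and -0.56 ± 0.10 in HFepa (limma adjusted p = 0.000472). The call in HFepa held without each library, whereas that in HFoleic was lost without 8 of the 23 (reference libraries 1, 5, 7 and 8 and HFoleic libraries 12, 13, 15 and 23), with adjusted p up to 0.0727. The guide moved the other way in HFepa, let-7d-5p being at 926 ± 69.0 CPM in reference and 1068 ± 108 in HFepa, a log2 fold change of 0.21 ± 0.066 that had an edgeR adjusted p = 0.0340 but was under the threshold of 0.25.

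MiR-98 gave 2.83 to 5.71 reads of 3p per 100 of 5p in reference (median 3.56), 1.36 to 3.61 in HFoleic (median 2.85) and 1.39 to 3.34 in HFepa (median 2.36). The groups overlapped. The log2 difference in HFepa vs. reference was -0.70 ± 0.20 (SE; limma adjusted p = 0.0148), and that in HFoleic vs. reference was -0.51 ± 0.20 with a limma adjusted p = 0.0705. The guide miR-98-5p had log2 fold changes of 0.15 ± 0.12 and 0.08 ± 0.12 in HFoleic and HFepa vs. reference, with edgeR adjusted p = 0.415 and 0.729.

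In let-7f the ratio rose while the passenger level was not called. Let-7f-2 gave 0.127 to 0.153 reads of 3p per 100 of 5p in reference (median 0.146) and 0.151 to 0.223 in HFepa (median 0.219), where 1 of 7 livers, library 17, fell within the reference range. Its log2 difference was 0.48 ± 0.14 (SE; limma adjusted p = 0.0148). Let-7f-1 gave 0.0494 to 0.0779 in reference (median 0.0583), 0.0554 to 0.151 in HFoleic (median 0.0860) and 0.0575 to 0.123 in HFepa (median 0.0942), with log2 differences of 0.55 ± 0.18 and 0.57 ± 0.19 (limma adjusted p = 0.0373 and 0.0350). Each of these let-7f-1 calls was lost without 9 of the 23 libraries, with adjusted p up to 0.0948 in HFoleic (reference libraries 2 to 5 and 7, HFoleic libraries 13 to 15 and 23) and 0.0872 in HFepa (reference libraries 2 to 5 and 7, HFepa libraries 16, 19, 20 and 22), while that of let-7f-2 held without each. Both ratios share the guide let-7f-5p, so they are not independent of each other. That guide was at 29830 to 36991 CPM in reference (median 33417) and 21060 to 31050 CPM in HFepa (median 23978), and it fell in HFepa, with a log2 fold change of -0.44 ± 0.12 and an edgeR adjusted p = 0.0195. Without HFepa library 22 the edgeR adjusted p of let-7f-5p was 0.0516. In HFoleic let-7f-5p was at 19085 to 37235 CPM (median 26074). It was not called in HFoleic vs. reference, at -0.25 ± 0.12 with an edgeR adjusted p = 0.155.

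**Figure D4:**
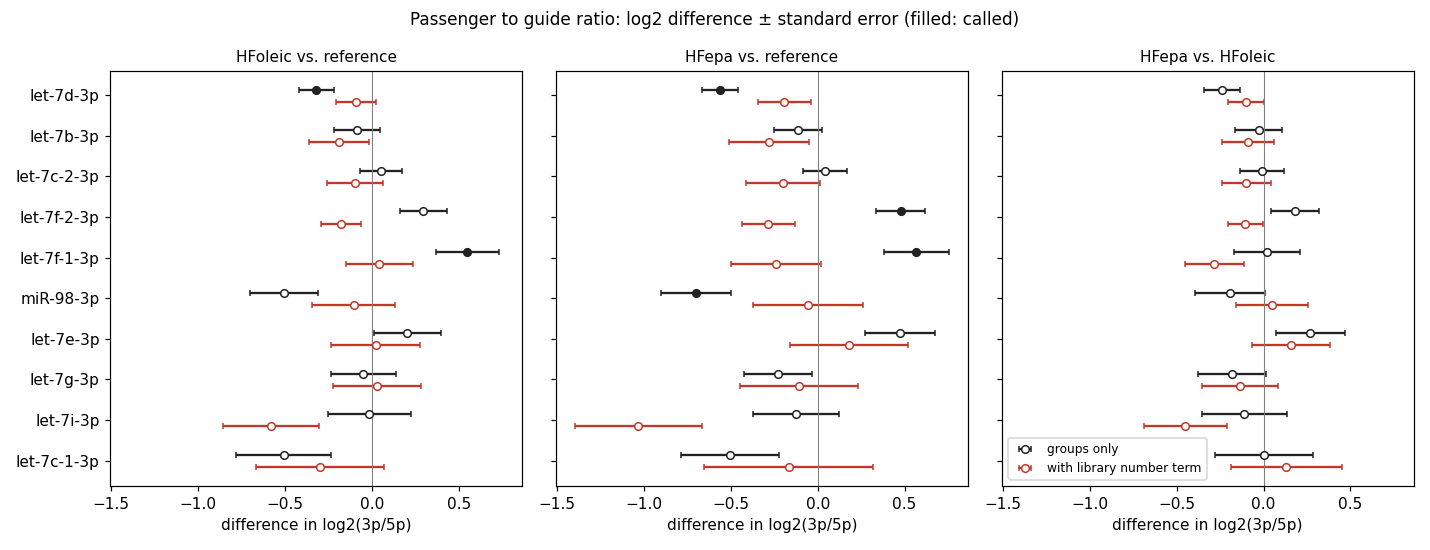
Difference in log2 of the 3p to 5p ratio (x axis) with its standard error for the 10 hairpins in the 3 comparisons, fitted by groups only (black) and with a term for the library number (red), with called values filled. Let-7d lies at -0.32 and -0.56 and let-7f-1 at 0.55 and 0.57 in the comparisons with reference; with the term no value is filled.

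These ratios also divided the HFoleic group by library number. Let-7d gave 40.2 to 42.0 reads of 3p per 100 of 5p in HFoleic libraries 9 to 11 and 26.6 to 38.5 in the other 5. Let-7f-2 gave 0.115 to 0.135 in the first 3 and 0.192 to 0.278 in the other 5, and let-7f-1 gave 0.0554 to 0.0695 and 0.0784 to 0.151. In none of these did the 2 sets overlap, nor did they for miR-98, at 3.25 to 3.61 and 1.36 to 2.88, or for let-7i, at 0.143 to 0.227 and 0.263 to 0.596. These are 5 of the 10 hairpins, beside 25.7% of all hairpins.

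Once library number was in the model, the arm ratio was called for 0 of the 10 hairpins in each comparison, as of all 105 hairpins (0%). In HFepa vs. reference the log2 difference was then -0.19 ± 0.15 for let-7d and -0.06 ± 0.32 for miR-98. For let-7f-1 it was -0.24 ± 0.26 and for let-7f-2 -0.28 ± 0.15. An unadjusted p under 0.05 was found for 1, 1 and 0 of the 10 in HFoleic and in HFepa against reference and in HFepa against HFoleic, beside 3.81%, 2.86% and 5.71% of all hairpins. The term, for a split chosen with these data known, was called for 4 of 10, beside 19% of all hairpins (4.76% higher and 14.3% lower). It was positive for let-7f-2 (0.76 ± 0.12, limma adjusted p = 5.62e-05), let-7f-1 (0.81 ± 0.21, limma adjusted p = 0.0101) and let-7i (0.91 ± 0.30, limma adjusted p = 0.0346), and negative for let-7d (-0.37 ± 0.13, limma adjusted p = 0.0382). For miR-98 the term was -0.65 ± 0.26 and was not called (limma adjusted p = 0.0850). The guide let-7f-5p averaged 35839 CPM in HFoleic libraries 9 to 11 and 23747 CPM in the other 5, without overlap, and its term was -0.59 ± 0.11 (edgeR adjusted p = 0.000827).

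**Figure D5:**
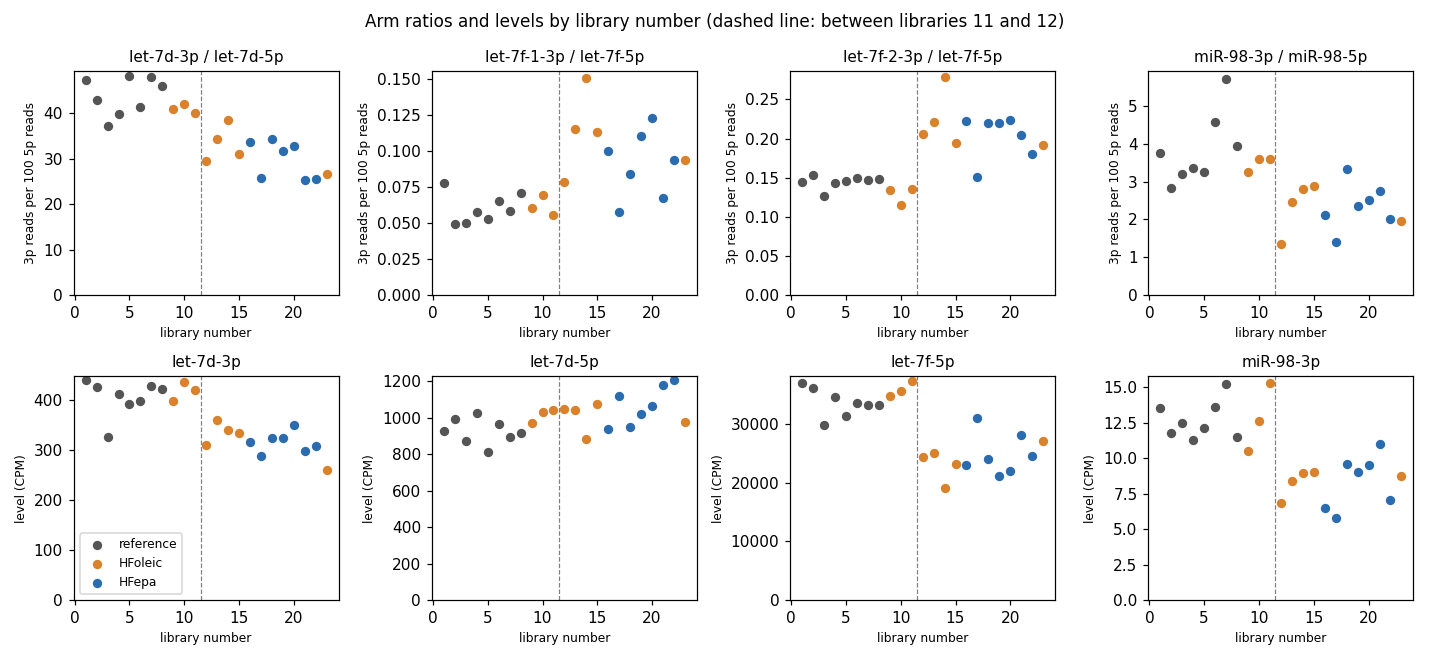
The upper panels give the reads of 3p per 100 reads of 5p and the lower panels the level in CPM (y axes) by library number (x axis), colored by group, with a dashed line between libraries 11 and 12. In the HFoleic group let-7d-3p lies at 397 to 435 CPM left of the line and at 260 to 360 right of it.

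Summed over the 10, the passenger strands were at 655 ± 58.5 CPM in reference, 615 ± 65.7 in HFoleic and 565 ± 30.5 in HFepa. They made up 1.29% ± 0.103 of the reads of these arms and their 8 guides in reference, 1.37% ± 0.261 in HFoleic and 1.35% ± 0.216 in HFepa, with no test made. Let-7d-3p took 59.9% to 63.6% of the summed passenger strands in reference, 51.3% to 64.3% in HFoleic and 54.0% to 57.5% in HFepa. Let-7c-2-3p took 8.44% to 10.4%, 9.33% to 13.3% and 10.7% to 13.0% in the same order.

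Of the 9 guide strands listed, let-7a-5p included, 1 was called in each comparison with reference and both were lower, beside 7.51% of all miRNAs called lower in HFoleic and 10.6% in HFepa. In HFoleic vs. reference this was let-7e-5p, at 276 to 570 CPM in reference (median 389) and 177 to 453 in HFoleic (median 265), a log2 fold change of -0.58 ± 0.18 with an edgeR adjusted p = 0.0367. Taking out 1 library at a time ended that call for 13 of the 23 libraries, with adjusted p between 0.0115 and 0.0937. Its passenger let-7e-3p had -0.40 in the same comparison, so the arm ratio of let-7e differed by 0.20 ± 0.19 with a limma adjusted p = 0.599. In HFepa vs. reference it was let-7f-5p, given above. With library number in the model 0 of the 9 guides were called in either comparison, let-7e-5p being at -0.22 ± 0.22 in HFoleic (edgeR adjusted p = 0.767) and let-7f-5p at 0.16 ± 0.14 in HFepa (edgeR adjusted p = 0.841).

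The miRNAs made from the same clusters as let-7 hairpins, miR-99, miR-100 and miR-125, were also followed. Of 11 listed arms 10 were tested, and 4 were called higher in HFoleic vs. reference and 4 in HFepa vs. reference, where 1, miR-125b-1-3p, was called lower. Over all miRNAs 4.92% and 5.18% were called higher in these comparisons, and 10.6% lower in the latter. MiR-125b-1-3p was at 6.11 to 24.5 CPM in reference (median 7.65) and 4.49 to 7.08 in HFepa (median 6.31). The value of 24.5 was that of reference library 3, above a next value of 12.8. The log2 fold change of miR-125b-1-3p was -0.79 ± 0.25 (edgeR adjusted p = 0.0340), and the part of library 3 in it was not tested. The 4 called higher were miR-100-5p, miR-125b-5p, miR-99a-5p, which is made beside let-7c-1 in Mir99ahg, and miR-99b-5p, which is made beside let-7e. MiR-99a-5p was at 288 to 348 CPM in reference (median 310), 331 to 1092 in HFoleic (median 613) and 397 to 740 in HFepa (median 646). Its log2 fold changes were 0.99 ± 0.21 and 0.96 ± 0.22 (edgeR adjusted p = 0.0107 and 0.00705). Let-7c-1-3p of the same host gene had -0.29 ± 0.25 and -0.40 ± 0.27 and was not called (edgeR adjusted p = 0.453 and 0.362). MiR-99b-5p had 1.64 ± 0.41 and 1.88 ± 0.42 (edgeR adjusted p = 0.0174 and 0.00653). Let-7e-3p had -0.40 ± 0.19 and -0.01 ± 0.19 and was not called (edgeR adjusted p = 0.163 and 0.984). The difference between these passenger strands and their neighbours was not tested. With the term for the library number, 0 of these arms were called in either comparison. That term was 1.25 ± 0.20 for miR-99a-5p (edgeR adjusted p = 0.000150). It was 1.35 ± 0.24 for miR-125b-5p, 2.39 ± 0.42 for miR-99b-5p and 2.82 ± 0.40 for miR-100-5p. Log2 fold changes were then -0.23 and -0.51 for miR-99b-5p and -0.22 and -0.67 for miR-100-5p. They were -0.11 and -0.32 for miR-125b-5p and 0.09 and -0.29 for miR-99a-5p. MiR-99b-5p was at 489 to 708 CPM in HFoleic libraries numbered up to 11, and at 1368 to 5688 CPM in those from 12 on. Reference livers ran from 544 to 987 CPM.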

How the data were processed

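Small RNA was sequenced from the liver of 23 mice, 1 library per mouse, grouped by the group label of each sample. The authors removed adapters with the FASTX-Toolkit, aligned reads with Bowtie in the ncPRO-seq pipeline, allowing mismatches, and counted reads per mature miRNA of miRBase. The genome is named both as GRCm38.p6 and as mm9 in the methods and as mm10 in the labels, and the RNA input differs between the methods and the labels. The authors deposited raw counts, which were used here. They also deposited a signal (counts divided by a size factor) in 23 columns, group means, and their own log2 fold changes, p-values and adjusted p-values, which were not used.

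Of 1218 miRNAs, 386 passed edgeR's filterByExpr and held 99.98% of the counts; 0 rows named no miRNA. Counts were scaled by TMM factors, the 3 groups were fitted together, and edgeR's quasi-likelihood test was adjusted over all 386 miRNAs. The study names DEGseq, which was not run. The threshold of 0.25 is the study's, read here as log2. SE is the log2 fold change divided by the square root of F. Arms were paired through RefSeq, giving 385 hairpins with both arms listed, of which 105 were tested by limma with trend. Replicates were compared by chi-square tests of their counts, which gave at least 32.0 per degree of freedom in 77 within-group pairs, and no libraries were merged. P-values set a difference between groups against the spread between these mice. All 10 passenger strands are described, and the guides and cluster miRNAs are named by list. The members and lists were chosen with earlier results of these data known, as was the split of library numbers. Alternatives were DESeq2, limma on quantile-normalized log2(CPM + 1), library totals, only the groups compared, at least 10 counts in every library, the library number, no filter, thinning to 3725432 counts (seed 20200412), 1 count added to the arms, an exact permutation test and leaving out each library. The tests were checked on simulated counts. R 4.3.3, edgeR 4.0.16, DESeq2 1.42.0, limma 3.58.1 and Python 3.11.15 with matplotlib 3.10.9 were used.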

Additional observations from a re-analysis of the deposited data

Results flagged for a closer look

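In each group the livers were searched for a single value set apart from the rest by a gap that is wide for the group's range (Dixon's test at 95%). Of 60 sets of values, the levels and arm ratios of 10 strands in 3 groups, 6 held such a value, while chance flags about 1 set in 20. In levels, let-7d-3p was at 326 CPM in reference library 3, below a next value of 391. That library had the largest TMM factor of all, 1.26, on which its CPM depends. Let-7b-3p was at 99.5 CPM in HFepa library 20, above a next value of 83.4, and let-7c-2-3p at 87.4 CPM in HFoleic library 14, above a next value of 71.2. In reads of 3p per 100 of 5p, let-7f-2 gave 0.127 in reference library 3, below a next value of 0.143. Let-7g gave 0.182 in reference library 7, above a next value of 0.131, and let-7i gave 0.596 in HFoleic library 14, above a next value of 0.355. Without reference library 3, the log2 fold change of let-7d-3p in HFepa vs. reference was -0.40, with an edgeR adjusted p = 0.00578.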

How the results depend on the processing

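Without each library in turn, 0 to 1 passenger strands were called in HFoleic vs. reference and 1 to 2 in HFepa vs. reference; the 1 call of the former came without HFoleic library 11, and miR-98-3p was lost in the latter without HFepa library 22. The arm ratio was called for 0 to 4 hairpins in HFoleic vs. reference, with 0 without reference libraries 5 and 7 and HFoleic libraries 13, 15 and 23, and 4 without HFoleic library 10, and for 3 to 4 in HFepa vs. reference. With quantile normalization, 0 passenger strands were called in HFepa vs. reference, as with the term for the library number, with which 0 arm ratios were called in either comparison with reference. In HFoleic vs. reference, 1 arm ratio was called after thinning and 1 by an exact permutation test adjusted over the members and comparisons. The cause of these changes was not tested, except that libraries were fewer or shallower by construction. HFepa vs. HFoleic had 0 calls of either kind under all alternatives run.

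The sign of these log2 fold changes was changed by an alternative; in the comparisons given, only let-7d-3p, miR-98-3p and let-7f-5p in HFepa vs. reference had been called. With library totals, the values were let-7b-3p -0.020, let-7f-2-3p -0.054, let-7g-3p -0.031 in HFoleic vs. reference, and let-7f-2-3p -0.028 in HFepa vs. reference. With DESeq2, the values were let-7e-3p 0.0039 in HFepa vs. reference, and let-7c-5p 0.0025 in HFepa vs. HFoleic. With quantile normalization, the values were let-7d-5p -0.016 in HFoleic vs. reference, and let-7b-3p 0.012, let-7e-3p 0.11, let-7g-3p 0.048 in HFepa vs. reference, and let-7c-1-3p 0.014, let-7c-2-3p 0.018, let-7b-5p 0.0062, let-7i-5p -0.010 in HFepa vs. HFoleic. With at least 10 counts in every library, the values were let-7f-2-3p -0.0040 in HFepa vs. HFoleic. With only the groups compared, the values were let-7b-3p 0.0057, let-7e-3p 0.017 in HFepa vs. reference, and let-7c-5p 0.0094 in HFepa vs. HFoleic. With the library number as a term, values were let-7b-3p -0.0035, let-7d-3p 0.043, let-7f-2-3p -0.086, miR-98-3p 0.014, let-7f-5p 0.093 in HFoleic vs. reference, and let-7d-3p 0.021, let-7e-3p 0.33, let-7f-1-3p -0.11, let-7f-2-3p -0.13, let-7g-3p 0.12, miR-98-3p 0.013, let-7e-5p 0.16, let-7f-5p 0.16 in HFepa vs. reference, and let-7c-1-3p 0.068, let-7f-2-3p -0.043, let-7c-5p 0.031, let-7f-5p 0.064 in HFepa vs. HFoleic. In libraries 1 to 11, the values were let-7d-3p 0.048, let-7f-2-3p -0.082, miR-98-3p 0.018, let-7f-5p 0.099 in HFoleic vs. reference. In libraries 12 to 23, the values were let-7f-2-3p -0.036, let-7g-3p 0.0094, miR-98-3p 0.011, let-7b-5p 0.0052, let-7c-5p 0.037, let-7f-5p 0.070 in HFepa vs. HFoleic. After thinning, the values were let-7f-2-3p -0.026 in HFoleic vs. reference, and let-7b-3p 0.0043 in HFepa vs. reference, and let-7c-5p 0.017 in HFepa vs. HFoleic. Among log2 arm ratio differences, those of let-7f-1 and let-7f-2 in HFepa vs. reference had been called. With the library number as a term, ratios differed by let-7c-2-3p -0.098, let-7f-2-3p -0.18, let-7g-3p 0.028 in HFoleic vs. reference, and let-7c-2-3p -0.20, let-7f-1-3p -0.24, let-7f-2-3p -0.28 in HFepa vs. reference, and let-7f-1-3p -0.28, let-7f-2-3p -0.10, miR-98-3p 0.049 in HFepa vs. HFoleic. After thinning, the ratios differed by let-7c-2-3p -0.026 in HFepa vs. reference, and let-7f-1-3p -0.022 in HFepa vs. HFoleic.

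Without each library in turn, the log2 fold changes that changed sign had these ranges, let-7b-3p (-0.025 to 0.10), let-7f-2-3p (-0.028 to 0.080), let-7g-3p (-0.039 to 0.15) in HFoleic vs. reference, and let-7b-3p (-0.077 to 0.042), let-7e-3p (-0.097 to 0.089), let-7f-2-3p (-0.017 to 0.080), let-7g-3p (-0.13 to 0.088) in HFepa vs. reference, and let-7b-3p (-0.12 to 0.0079), let-7c-1-3p (-0.24 to 0.067), let-7c-2-3p (-0.055 to 0.040), let-7f-2-3p (-0.029 to 0.064), let-7g-3p (-0.16 to 0.051), let-7i-3p (-0.19 to 0.094), let-7a-5p (-0.0088 to 0.11), let-7c-5p (-0.065 to 0.031), let-7i-5p (-0.00031 to 0.066), miR-98-5p (-0.10 to 0.0030) in HFepa vs. HFoleic. The log2 arm ratio differences that changed sign had these ranges, let-7c-2-3p (-0.032 to 0.12), let-7g-3p (-0.12 to 0.036), let-7i-3p (-0.17 to 0.12) in HFoleic vs. reference, and let-7c-2-3p (-0.00080 to 0.11), let-7i-3p (-0.24 to 0.027) in HFepa vs. reference, and let-7b-3p (-0.10 to 0.043), let-7c-1-3p (-0.23 to 0.18), let-7c-2-3p (-0.073 to 0.075), let-7f-1-3p (-0.074 to 0.13), let-7g-3p (-0.30 to 0.017), let-7i-3p (-0.25 to 0.044) in HFepa vs. HFoleic.

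No paired analysis was possible because each library has a number of its own and the labels tie no mouse of one group to a mouse of another. Depth limits let-7c-1-3p, let-7g-3p and let-7i-3p most, and the HFepa libraries were shallower than the reference libraries; after thinning to the smallest total, let-7d-3p and miR-98-3p had log2 fold changes of -0.33 and -0.56 in HFepa vs. reference, with edgeR adjusted p = 0.0236 and 0.0265.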
